A study of Homo sapiens with 6 samples.

Results

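Genes of the type I interferon response were examined in LX-2 cells, a human hepatic stellate cell line, after treatment with rhSema3C, the recombinant human form of the secreted guidance protein semaphorin 3C. The rule for choosing the genes used annotation and names and no measured values: a gene was a member when the deposited table gave it the GO term for the type I interferon signalling pathway, with HLA genes, *EGR1* and *PSMB8* left out by name. The term was carried by 54 genes, of which 5 were HLA genes and 2 the others left out, so that 47 of the 33900 genes in the table were members. The comparison was between 3 samples that received rhSema3C (300 ng/ml) and 3 that received PBS, the vehicle, all harvested after 48 h. All 6 were unmodified (WT) LX-2 cells, labelled as biological replicates and grown in DMEM with serum and antibiotics. A single cell line was used, and whether the replicates came from separate cultures was not stated, so the p-values measure the spread between these samples.

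Type I interferons (IFN-α and IFN-β) bind a receptor made of IFNAR1 and IFNAR2, whose kinases JAK1 and TYK2 phosphorylate STAT proteins. Phosphorylated STAT proteins, STAT2 among them, join IRF9 in a complex that binds the interferon-stimulated response element (ISRE) in promoters and switches on antiviral genes such as the IFIT, OAS, MX and IFITM families. The cells that make interferon are alerted by sensors of foreign nucleic acid, which act through the transcription factors IRF3 and IRF7.

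rhSema3C did not move the members in 1 direction. Of the 39 members that could be tested, 9 were higher with rhSema3C (23.1%) and 20 were lower (51.3%), and 10 did not pass the test (edgeR's quasi-likelihood test on counts, adjusted p below 0.05). Beside this, 31.7% of the 14178 genes tested in the whole table were higher and 30.6% were lower. *IFIT2*, *IFIT3* and *SP100* were among the members that rose, and 3 of the 4 tested OAS genes, both MX genes and the 3 IFITM genes fell. The median log2 fold change of the 39 tested members was -0.14, with quartiles of -0.56 and 0.21, and that of all genes tested was 0.02. Of the members called, 0 were more than 2-fold higher and 1, *OAS1*, was more than 2-fold lower. *RSAD2*, too low to test, is not in these counts. Of all genes tested, 3.31% were called and more than 2-fold higher and 2.06% were called and more than 2-fold lower. The median absolute log2 fold change was 0.386 for the tested members and 0.34 for all genes tested. The 3 samples of one group did not overlap the 3 of the other in 30 members (76.9%), 10 of them higher and 20 lower, and the same held for 67.8% of all genes tested. The split of the calls depended on how the libraries were scaled. With library size alone in place of TMM factors, 12 members were higher and 15 lower, and with FPKM rescaled to a common sum (TPM) 13 were higher and 13 lower, as against 11 and 15 with limma on log2(FPKM + 1). For all genes these became 5641 higher and 3433 lower with library size and 6934 and 2428 with TPM. Library-size scaling moved the median of all genes by 0.11 and TPM moved it by 0.20. Relative to the median of all genes, the members' median was -0.17 with TMM, -0.17 with library size and -0.14 with TPM.

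**Figure D1:**
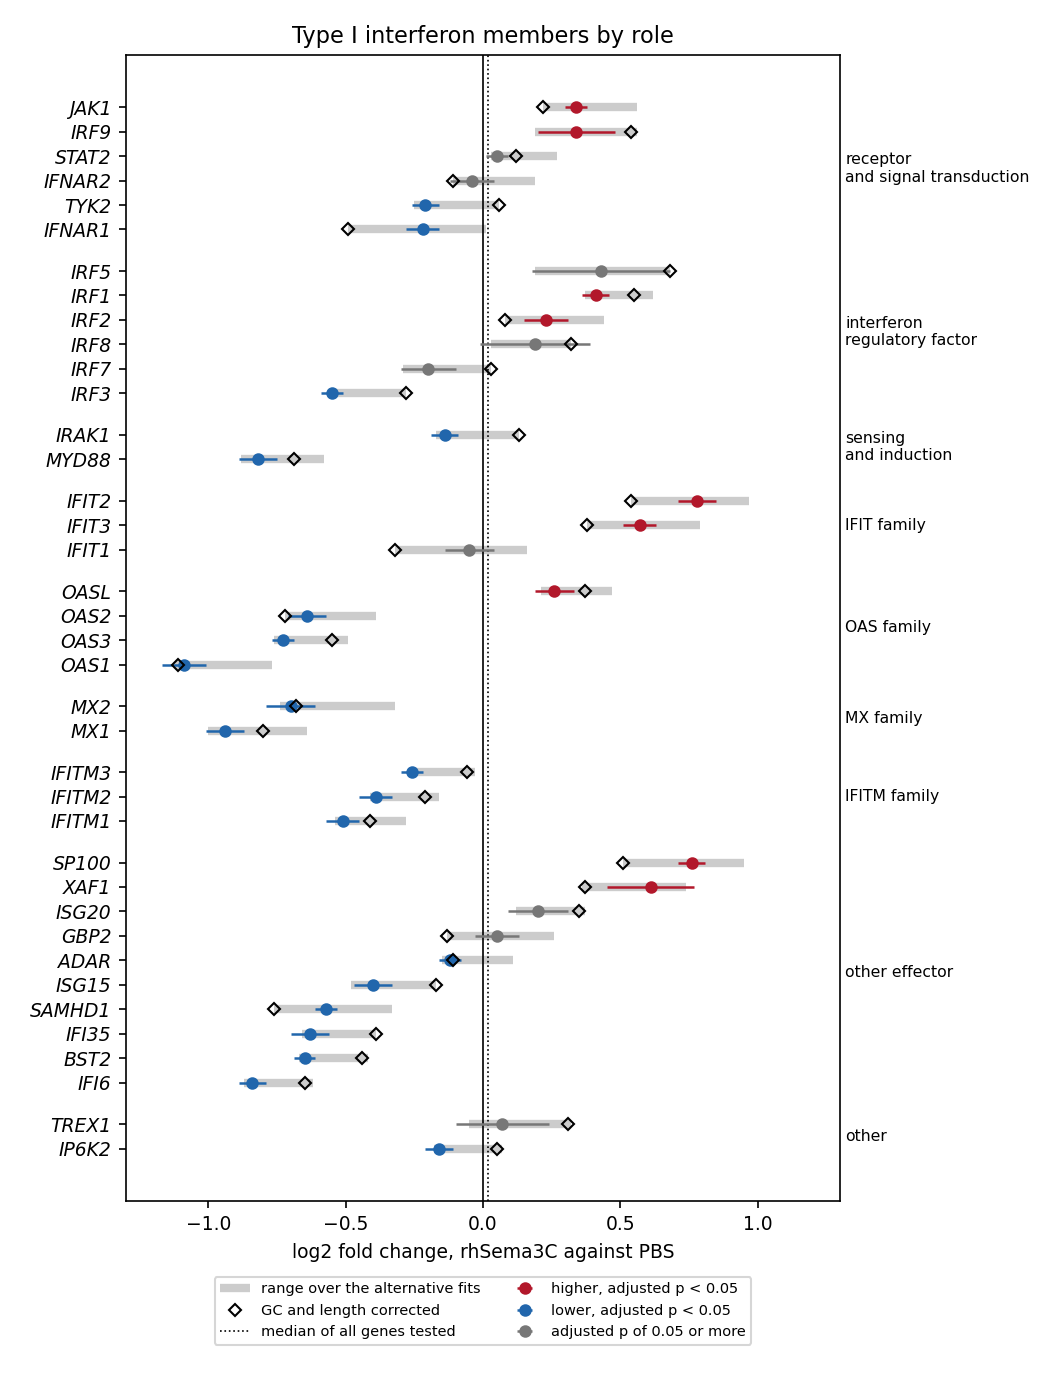
Log2 fold change (rhSema3C against PBS, x axis) of 38 of the 39 tested members, grouped by role; filled points are edgeR estimates with bars of 1 standard error, open diamonds the values after correction for GC content and transcript length, and grey bands the range over the alternative fits. IFIT2, IFIT3 and SP100 sit at the right, between 0.57 and 0.78, and OAS1, MX1 and IFI6 at the left, between -1.09 and -0.84.

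The libraries held 68267808 to 89245585 counts each. The share of counts on mitochondrial genes was 4.75% to 5.42% in the PBS samples and 3.73% to 3.93% in the rhSema3C samples, and its part in the results was not tested. The changes of all genes followed the base composition of their transcripts. In the fifth of genes with the lowest GC content (23.1% to 41.2%) the median log2 fold change was 0.31, and in the fifth with the highest (58.1% to 75.7%) it was -0.29. Across genes, the Spearman correlation of log2 fold change with GC content was -0.48 over 14096 genes and -0.32 over the 39 tested members, given as a description since genes are not independent replicates. The cause of this trend was not tested. A fit corrected for GC content and transcript length, library by library, was added after the data were seen. Its values are given below where they matter, beside the uncorrected ones and not in place of them. In that fit 11 members were higher and 18 lower, with a median of -0.11 against -0.03 for all genes, of which 24.8% were higher and 31.3% lower. Fewer cells carrying an RNA and less of it per cell cannot be told apart in these bulk samples.

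**Figure D2:**
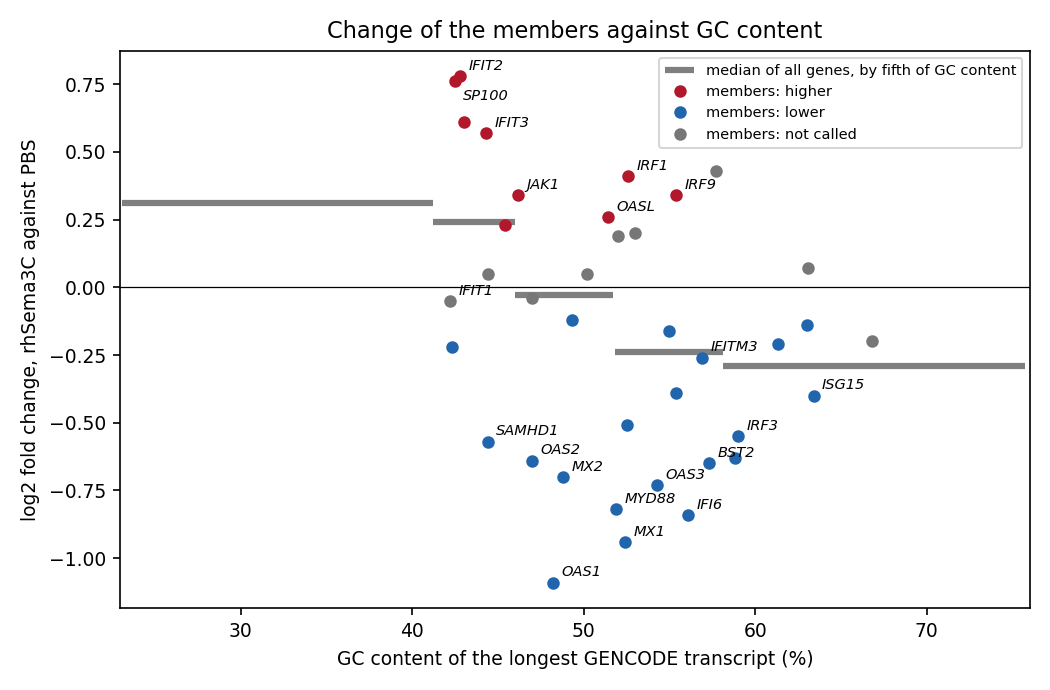
Log2 fold change (rhSema3C against PBS, y axis) of 38 tested members against the GC content of its longest transcript in percent (x axis), with grey lines at the median of all genes in 5 bins of equal size by GC content. The grey lines step down from 0.31 to -0.29, IFIT2 and SP100 lie above the line of their bin, and OAS1, OAS2, MX1, MX2 and SAMHD1 lie well below theirs.

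The marker genes of other cell types were at or near 0, with some exceptions. *ALB*, *PTPRC*, *CD163*, *CDH5* and *EPCAM*, which mark hepatocytes, leukocytes, macrophages, endothelium and epithelium, each had a mean FPKM (fragments scaled to transcript length and library size) of 0.0117 or less. The exceptions with a mean FPKM above 3 were *CD68*, *CD14*, *SERPINA1* and *KRT7*, at 80.2, 3.79, 3.32 and 3.08. *CD68* and *CD14*, of the macrophage list, fell by 0.58 and 0.81 on the log2 scale, and *SERPINA1*, of the hepatocyte list, rose by 0.37 (edgeR adjusted p = 0.0066). *VWF*, an endothelial marker below the limit for a test, had 87, 71 and 88 counts with PBS and 606, 513 and 653 with rhSema3C, and was 6.03-fold higher in the fit without the limit (edgeR adjusted p = 1.2e-05). The summed FPKM of the 7 macrophage and leukocyte markers listed in the table was 94.7 to 103.4 with PBS and 66.9 to 72.7 with rhSema3C, most of it *CD68*, a lysosomal protein that other cells also make. Only *IL3RA* and *TCF4* of the 4 markers of plasmacytoid dendritic cells, the professional interferon producers, were listed, with a summed FPKM of 0.562 to 0.674 and 0.999 to 1.15. The summed FPKM of the hepatocyte markers was 2.62 to 3.16 and 3.52 to 4.14, that of the endothelial markers 0.803 to 1.06 and 1.27 to 1.7, and that of the epithelial markers 2.37 to 3.92 and 3.2 to 3.68. Among the 12 stellate cell markers, *COL1A1*, *COL3A1*, *ACTA2*, *VIM*, *THY1* and *TIMP1* were expressed and fell, while *COL1A2*, *DES* and *DCN*, also defining genes of these cells, had mean FPKM of 0.109, 0.0252 and 0.00791. The other 3 of the 9 tested were not called: *PDGFRB* at 0.09, *S100A6* at -0.02 and *LUM* at 0.14 on the log2 scale. After the GC and length correction 2 of the 9, *PDGFRB* (0.34) and *S100A6* (0.21), were called higher and 6 lower. The summed FPKM of the 12 was 1533 to 1583 with PBS and 1235 to 1288 with rhSema3C. What part the stellate cell markers or those of other cell types have in the interferon results was not tested.

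The ISRE is the DNA element that defines the response, so the promoters of the members were searched for its core, read as GAAA, any 2 bases, GAAA, on either strand. RefSeq promoters (GRCh38.p14, 250 bases before to 50 after the start) were given for 33 of the 47 members. The core was found in 14 of these 33 members (42.4%) and in 1195 of the 27305 genes with a promoter (4.38%). By call, it was in 1 of 6 members that rose, 8 of 16 that fell, 2 of 6 that were not called and 3 of 5 that were not tested. No promoter was given for *IFIT2*, *IRF2* and *OASL*, which rose, or for *IFITM2*, *IRF3*, *MX2* and *OAS2*, which fell. The shares by call leave these genes out, so they do not tell whether the core differs between rising and falling members. The element bound by STAT dimers, TTCNNNGAA, which reads the same on both strands, was found in 11 of the 33 members (33.3%) and in 2560 of all genes (9.38%), and in 5 of the members a match of it overlapped an ISRE core. It was in 2 of the 6 members that rose, 6 of the 16 that fell, 0 of the 6 that were not called and 3 of the 5 that were not tested. These shares also leave out the members without a promoter, so they do not tell whether the element differs between the calls. The 60-base stretches below come from a member that rose (*IFIT3*), one that was not called (*IFIT1*) and 5 that fell, to show that cores of the same form preceded genes of each kind. Capitals mark the ISRE cores, including overlapping ones, and each sequence is given on the strand of its gene.
IFIT3, chr10:89332453-89332512, + strand: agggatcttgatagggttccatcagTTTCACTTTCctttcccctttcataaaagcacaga
IFIT1, chr10:89392495-89392554, + strand: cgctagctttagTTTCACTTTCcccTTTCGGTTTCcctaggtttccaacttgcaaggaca
ISG15, chr1:1013365-1013424, + strand: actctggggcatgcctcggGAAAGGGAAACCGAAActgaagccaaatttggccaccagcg
IFI6, chr1:27672263-27672322, - strand: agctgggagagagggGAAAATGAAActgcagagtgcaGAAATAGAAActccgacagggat
BST2, chr19:17405720-17405779, - strand: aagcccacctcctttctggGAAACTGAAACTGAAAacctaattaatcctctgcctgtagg
OAS3, chr12:112938316-112938375, + strand: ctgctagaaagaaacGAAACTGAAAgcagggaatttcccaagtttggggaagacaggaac
MYD88, chr3:38138575-38138634, + strand: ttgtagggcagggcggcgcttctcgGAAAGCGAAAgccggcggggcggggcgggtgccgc
The core shown for *IFIT3* began 51 bases before the more downstream of its starts, and those of *IFIT1* began 116 and 103 bases before the start. The core shown was 143 bases before the start in *OAS3* and 61 bases before it in *MYD88*, and the pairs shown lay 113 and 107 bases before it in *ISG15*, 115 and 93 in *IFI6*, and 130 and 124 in *BST2*. A match of letters is not a measured binding site.

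The ligands among the members were barely detected. *IFNB1*, the interferon that most cells make first, had 4, 4 and 0 counts in the PBS samples and 2, 4 and 2 in the rhSema3C samples. *IFNA1* had 6, 0 and 6 counts and 5, 0 and 4 counts. Of the 50-base words of its longest transcript, 60.7% were shared with *IFNA13*, so its few reads may belong to either gene. Both ligands were below the mean FPKM of 0.5 required for a test, and no difference was detectable at this depth.

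The receptor and the signal transduction genes had log2 fold changes of -0.22 to 0.34, with no common direction. *IFNAR1* (chr21:33324429-33355703), a receptor chain, was at 90.8, 80.0 and 89.8 CPM (counts scaled to library size by TMM) with PBS and at 73.0, 77.4 and 73.2 CPM with rhSema3C. The groups did not overlap, and the log2 fold change was -0.22 (SE 0.06, edgeR adjusted p = 0.0049), with 0.01 on the TPM scale and -0.49 after the GC and length correction. *IFNAR2*, the other chain, had a log2 fold change of -0.04 (SE 0.08, edgeR adjusted p = 0.7). Of the words of its longest transcript, 43.2% were shared, almost all with a readthrough transcript into *IL10RB*. *JAK1*, the kinase carried by IFNAR2, was at 223.7, 218.0 and 227.2 CPM with PBS and 287.2, 273.8 and 283.1 CPM with rhSema3C. All 3 treated samples were above all controls, and the log2 fold change was 0.34 (SE 0.04, edgeR adjusted p = 2.5e-05). *TYK2*, the kinase carried by IFNAR1, stood at 116.7, 129.6 and 114.7 CPM and 102.5, 103.2 and 105.6 CPM, a log2 fold change of -0.21 (SE 0.05, edgeR adjusted p = 0.0034) that became 0.06 after the GC and length correction and 0.02 on the TPM scale.

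In the ISRE-binding complex, *STAT2* was not called with TMM scaling and *IRF9* only just passed the test. *STAT2* had a log2 fold change of 0.05 (SE 0.04, edgeR adjusted p = 0.33), with overlapping groups. It was called higher at 0.12 after the GC and length correction (edgeR adjusted p = 0.022), at 0.16 with library-size scaling and at 0.27 on the TPM scale, and was not called in 9 of the 16 alternative fits. *IRF9*, the DNA-binding subunit, was at 23.2, 32.8 and 33.5 CPM with PBS and 35.4, 33.8 and 44.1 CPM with rhSema3C. One PBS sample lay far below the other controls, and the highest control was just below the lowest treated sample. The log2 fold change of *IRF9* was 0.34 (SE 0.14, edgeR adjusted p = 0.049), and it fell to 0.19 without PBS replicate 1 and to 0.21 without rhSema3C replicate 3, neither of which passed the test, nor did it pass with DESeq2, median-of-ratios scaling or the fit without a limit on low genes. After the GC and length correction it was 0.54 (edgeR adjusted p = 0.0042). All words of the longest *IRF9* transcript also occur in a readthrough gene, so the level of *IRF9* is uncertain.

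The interferon regulatory factors, transcription factors named for their part in this response, moved in different directions. *IRF1* (chr5:132481609-132490773), which activates many interferon-stimulated genes directly, was at 84.7, 85.4 and 78.7 CPM with PBS and 108.5, 111.8 and 109.8 CPM with rhSema3C. Each treated sample was above each control, with a log2 fold change of 0.41 (SE 0.05, edgeR adjusted p = 1.5e-05) and 0.55 after the GC and length correction. *IRF3* (chr19:49659569-49665875), which drives interferon production after sensing, was at 89.5, 90.6 and 88.2 CPM and 60.4, 62.0 and 60.6 CPM. The treated samples were all lower, with a log2 fold change of -0.55 (SE 0.04, edgeR adjusted p = 9e-07) and -0.28 after the correction. *IRF3* shares exon sequence with *BCL2L12* on the other strand, and the strand setting of the counting was not stated. *IRF2*, an antagonist of IRF1, was at 19.7, 20.3 and 20.4 CPM and 23.6, 22.1 and 25.3 CPM, a log2 fold change of 0.23 (SE 0.08, edgeR adjusted p = 0.021) that was 0.08 after the correction and did not pass there, nor without PBS replicate 1 or rhSema3C replicate 3.

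The remaining regulatory factors gave no call without the GC and length correction when all samples were used. *IRF7*, which amplifies interferon production, was at 22.2, 22.8 and 18.9 CPM with PBS and 20.8, 16.9 and 18.2 CPM with rhSema3C. Its groups overlapped, with a log2 fold change of -0.20 (SE 0.10, edgeR adjusted p = 0.12) and 0.03 after the correction, and it passed the test at -0.27 without PBS replicate 3 and at -0.29 without rhSema3C replicate 1. *IRF5* and *IRF8*, better known from myeloid cells, were just above the limit for a test, at mean FPKM of 0.467 and 0.528 with PBS and 0.675 and 0.651 with rhSema3C. The log2 fold change of *IRF5* was 0.43 (SE 0.25, edgeR adjusted p = 0.15), and 0.68 after the correction, where it passed (edgeR adjusted p = 0.04). That of *IRF8* was 0.19 (SE 0.20, edgeR adjusted p = 0.43). *IRF4*, best known from lymphocytes, had 10, 4 and 4 counts in the PBS samples and 20, 0 and 6 in the others, which was too low to test.

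**Figure D3:**
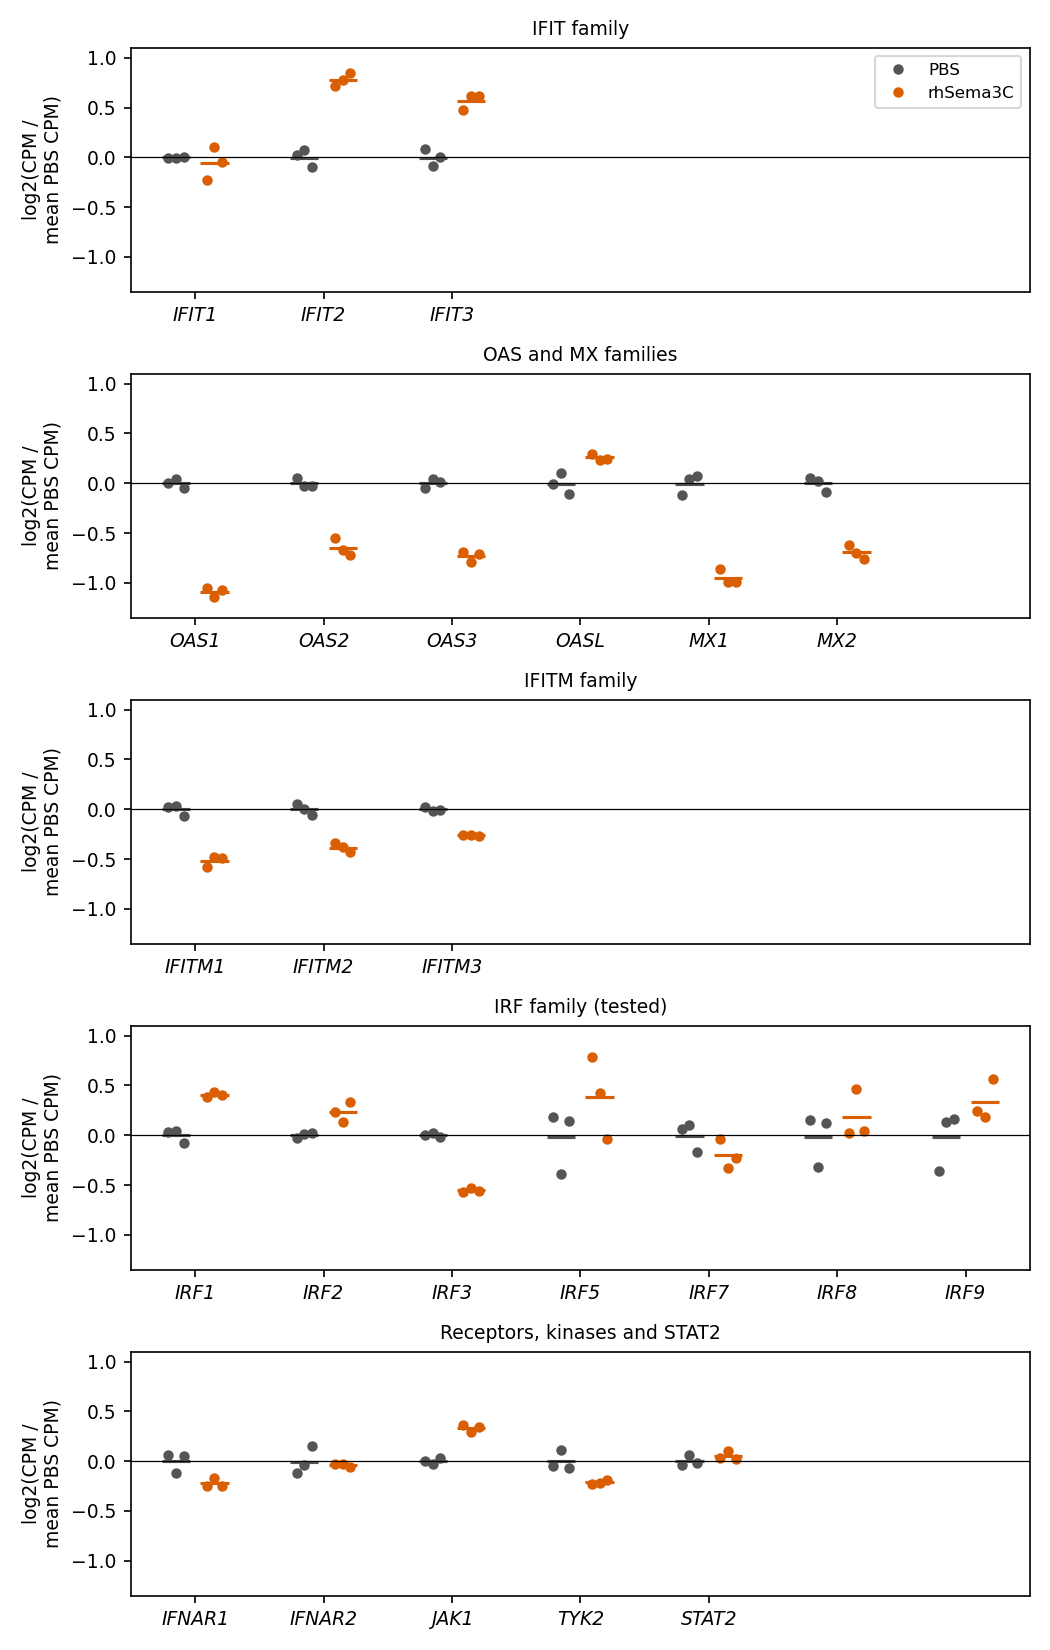
Level of each member in every sample, as log2 of its CPM over the mean CPM of the PBS samples (y axis), for the IFIT, OAS and MX, IFITM and IRF families and for receptors, kinases and STAT2; grey points are PBS, orange points rhSema3C, and short lines the group means. The rhSema3C points of IFIT2 and IFIT3 sit above the line at 0, those of OAS1, OAS2, OAS3, MX1, MX2 and the IFITM genes sit below it, and those of IFIT1 lie on both sides of it.

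Of the members that act in sensing, *MYD88* fell, and the direction of *IRAK1* depended on the correction. *MYD88* (chr3:38138478-38143022), the adaptor of Toll-like receptors, was at 61.9, 73.6 and 67.0 CPM with PBS and 38.6, 35.9 and 40.2 CPM with rhSema3C. The lowest control lay well above the highest treated sample, and the log2 fold change was -0.82 (SE 0.07, edgeR adjusted p = 2.1e-06). *IRAK1*, the kinase recruited by MYD88, was at 320.4, 337.4 and 308.7 CPM and 297.0, 283.2 and 295.8 CPM. Its log2 fold change of -0.14 (SE 0.05, edgeR adjusted p = 0.017) became 0.13 after the GC and length correction, where it was called higher (edgeR adjusted p = 0.0057), and 0.09 on the TPM scale. It did not pass without PBS replicate 2 or without rhSema3C replicate 2.

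The IFIT genes encode proteins that bind viral RNA and lie in a cluster on chromosome 10. *IFIT2* (chr10:89283694-89309271) was at 20.2, 20.9 and 18.6 CPM in the PBS samples and at 32.8, 34.0 and 35.8 CPM in the rhSema3C samples, means of 19.9 ± 1.15 and 34.2 ± 1.5 CPM (SD, n = 3 each). The groups were far apart, with a log2 fold change of 0.78 (SE 0.07, edgeR adjusted p = 3.3e-06), or 1.72-fold, and 0.54 after the GC and length correction. Its exons overlap another transcript on the same strand, with 8.4% of its words, and *LIPA* on the other strand. *IFIT3* (chr10:89327997-89340971), the partner that stabilises IFIT1, was at 43.5, 38.6 and 41.3 CPM and 57.0, 63.2 and 63.2 CPM. It rose with a log2 fold change of 0.57 (SE 0.06, edgeR adjusted p = 1.6e-05), or 1.49-fold, with 0.38 after the correction. *IFIT1* (chr10:89392546-89406487), further along the cluster, was at 20.6, 20.6 and 20.7 CPM with PBS and 17.6, 22.1 and 20.0 CPM with rhSema3C. The treated samples of *IFIT1* lay on both sides of the controls, and the log2 fold change was -0.05 (SE 0.09, edgeR adjusted p = 0.65), with -0.32 after the GC and length correction, where it passed the test (edgeR adjusted p = 0.0053), and 0.16 on the TPM scale.

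The OAS genes encode enzymes that sense double-stranded RNA and make a nucleotide messenger from ATP. *OAS1* (chr12:112906783-112932142) was at 26.2, 26.8 and 25.2 CPM with PBS and 12.6, 11.8 and 12.4 CPM with rhSema3C, means of 26.1 ± 0.787 and 12.2 ± 0.42 CPM (SD, n = 3 each). This was the largest change among the tested members, with a log2 fold change of -1.09 (SE 0.08, edgeR adjusted p = 5e-07), or 2.13-fold lower, and -1.11 after the GC and length correction. *OAS3* (chr12:112938444-112968054), which senses the longest RNA, was at 154.9, 165.0 and 161.5 CPM and 99.8, 92.6 and 97.9 CPM. Its log2 fold change was -0.73 (SE 0.04, edgeR adjusted p = 1.6e-07). *OAS2* (chr12:112978395-113011723) was at 37.9, 35.7 and 35.9 CPM and 25, 23 and 22.1 CPM, with a log2 fold change of -0.64 (SE 0.07, edgeR adjusted p = 1.3e-05). These 3 genes are neighbours, and in each the treated samples were all below the controls.

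*OASL* (chr12:121019111-121039242), a relative without the enzyme activity that lies elsewhere on the same chromosome, was at 25.6, 27.7 and 23.8 CPM with PBS and 31.6, 30.3 and 30.4 CPM with rhSema3C. Its treated samples were all above the controls, with a log2 fold change of 0.26 (SE 0.07, edgeR adjusted p = 0.009) and 0.37 after the correction.

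Both MX genes, which encode dynamin-like GTPases that block viral replication and are neighbours on chromosome 21, fell. *MX1* (chr21:41420304-41459214) was at 37.1, 41.4 and 42.2 CPM with PBS and 22.1, 20.3 and 20.3 CPM with rhSema3C. The log2 fold change of *MX1* was -0.94 (SE 0.07, edgeR adjusted p = 1e-06), or 1.92-fold lower. *MX2* (chr21:41361999-41409390) was at 20.6, 20.2 and 18.7 CPM and 12.9, 12.2 and 11.7 CPM, a log2 fold change of -0.70 (SE 0.09, edgeR adjusted p = 3.5e-05). Neither gene had a treated sample as high as any control, and after the GC and length correction the values were -0.80 for *MX1* and -0.68 for *MX2*.

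The IFITM genes encode small membrane proteins that block the entry of viruses, and they lie together on chromosome 11. *IFITM1* (chr11:313506-315272) was at 38.9, 39.1 and 36.5 CPM with PBS and 25.6, 27.4 and 27.2 CPM with rhSema3C, a log2 fold change of -0.51 (SE 0.06, edgeR adjusted p = 3.7e-05). *IFITM2* (chr11:307631-315272) was at 41.4, 39.8 and 38.3 CPM and 31.4, 30.6 and 29.5 CPM, a log2 fold change of -0.39 (SE 0.06, edgeR adjusted p = 0.00024). The treated samples were below the controls in both. *IFITM3* (chr11:319676-327537) was at 243.4, 236.2 and 237.2 CPM and 200.1, 199.7 and 198.7 CPM, with a log2 fold change of -0.26 (SE 0.04, edgeR adjusted p = 0.00011). The treated samples of *IFITM3* were nearly identical to each other, and the change shrank to -0.06 after the GC and length correction and to -0.03 on the TPM scale, neither of which passed the test. The 3 genes share sequence: 42.3% of the words of *IFITM1*, 15.8% of those of *IFITM2* and 20.3% of those of *IFITM3* occur in other genes. Exons of *IFITM1* and *IFITM2* overlap on the same strand, and 39.0% of the words of *IFITM1* occur in *IFITM2*. Reads could therefore be assigned between these genes.

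Among the other effectors, 2 rose and 6 fell of the 10 tested. *SP100* (chr2:230415942-230543122), a component of nuclear bodies that restrict DNA viruses, was at 70.1, 63.4 and 67.5 CPM with PBS and 112.2, 117.9 and 110.5 CPM with rhSema3C. All treated samples were far above the controls, with a log2 fold change of 0.76 (SE 0.05, edgeR adjusted p = 2.7e-07), or 1.69-fold, and 0.51 after the correction. The exons of *SP100* overlap *HMGB1P3* on the same strand, with 12.9% of its words, and another gene on the other strand. *XAF1*, which promotes apoptosis, was at 7.16, 6.65 and 8.74 CPM and 9.07, 14.0 and 11.3 CPM. The groups came close to each other, and its log2 fold change of 0.61 (SE 0.16, edgeR adjusted p = 0.007) was 0.37 after the correction and did not pass there.

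The effectors that fell include genes that were highly expressed. *IFI6* (chr1:27666064-27672192), a small protein that protects cells from apoptosis, was at 82.6, 82.7 and 80.3 CPM with PBS and 43.6, 47.2 and 46.0 CPM with rhSema3C, a log2 fold change of -0.84 (SE 0.05, edgeR adjusted p = 1.2e-07), or 1.8-fold lower. *BST2* (chr19:17402939-17405630), the tetherin that holds budding virus at the cell surface, was at 165.0, 166.2 and 158.0 CPM and 104.4, 104.8 and 102.1 CPM, a log2 fold change of -0.65 (SE 0.04, edgeR adjusted p = 1.6e-07). In both, the 2 groups were separated by several times their own spread. *IFI35* was at 37.1, 36.0 and 34.4 CPM and 23.6, 23.8 and 22.2 CPM, a log2 fold change of -0.63 (SE 0.07, edgeR adjusted p = 9.7e-06). *SAMHD1* (chr20:36890229-36951843), which breaks down the nucleotides that viruses need, was at 117.1, 119.3 and 121.8 CPM and 82.9, 77.6 and 81.5 CPM, a log2 fold change of -0.57 (SE 0.04, edgeR adjusted p = 8.1e-07) that was -0.76 after the GC and length correction. The treated samples were below the controls in each of these genes.

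*ISG15* (chr1:1001138-1014540), the ubiquitin-like modifier of the response, was at 52.4, 49.7 and 51.1 CPM with PBS and 35.6, 37.4 and 43.3 CPM with rhSema3C. The controls were close together and 1 treated sample was nearer to them than the others, with a log2 fold change of -0.40 (SE 0.07, edgeR adjusted p = 0.00071), -0.17 after the correction and -0.17 on the TPM scale, where it did not pass. *ADAR*, the RNA-editing enzyme that masks the cell's own double-stranded RNA, changed by -0.12 (SE 0.04, edgeR adjusted p = 0.031), and by 0.11 on the TPM scale. Among the fits with a sample left out, it kept its call only without rhSema3C replicate 1, and leaving out any other sample took the adjusted p above 0.05. *IP6K2*, an inositol phosphate kinase, had a log2 fold change of -0.16 (SE 0.05, edgeR adjusted p = 0.012), and 0.05 after the correction, and did not pass without rhSema3C replicate 3. *ISG20*, an RNA exonuclease, had 0.20 (SE 0.11, edgeR adjusted p = 0.13), and 0.35 after the correction, where it passed (edgeR adjusted p = 0.016). *GBP2*, a guanylate-binding protein, had 0.05 (SE 0.08, edgeR adjusted p = 0.58) and *TREX1*, a DNA exonuclease, 0.07 (SE 0.17, edgeR adjusted p = 0.75), and neither passed after the correction, at -0.13 and 0.31. All words of the longest *TREX1* transcript also occur in *ATRIP*.

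The 8 members below the limit for a test included *RSAD2*, *IFI27*, *IRF4*, *IFNB1*, *IFNA1* and a readthrough gene of *IFNAR2* and *IL10RB*, which had 2 counts in 1 rhSema3C sample and 0 in the other 5. *RSAD2*, which encodes the antiviral enzyme viperin, had 42, 47 and 47 counts with PBS and 151, 149 and 191 counts with rhSema3C. The groups were well separated, at 0.488, 0.671 and 0.711 CPM and 1.74, 1.62 and 2.28 CPM, and in the fit without the limit the log2 fold change was 1.58 (SE 0.27, edgeR adjusted p = 0.0016), or 3.0-fold. Its exons overlap those of *CMPK2* on the other strand. *IFI27* had 141, 75 and 174 counts and 119, 122 and 117 counts, with a log2 fold change of -0.39 in the same fit (edgeR adjusted p = 0.42). The treated counts of *IFI27* lay within the range of the controls.

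Ratios of 2 members within a library do not depend on the scaling between samples. The pairs were chosen after their values were seen, and a ratio shows unequal change of the 2 genes, not the direction of either. The relation to GC content remains in these ratios, which are a description. The ratio of *IFIT2* to *OAS1* counts was 0.77, 0.779 and 0.738 in the PBS samples and 2.61, 2.89 and 2.9 in the rhSema3C samples. For *IFIT3* to *OAS3* it was 0.281, 0.234 and 0.255, and 0.572, 0.682 and 0.646. The ratio of *OASL* to *OAS1* went from 0.976, 1.04 and 0.944 to 2.52, 2.58 and 2.46, and that of *IRF1* to *IRF3* from 0.947, 0.943 and 0.892 to 1.8, 1.8 and 1.81. In each pair the samples of the 2 groups were far apart.

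**Figure D4:**
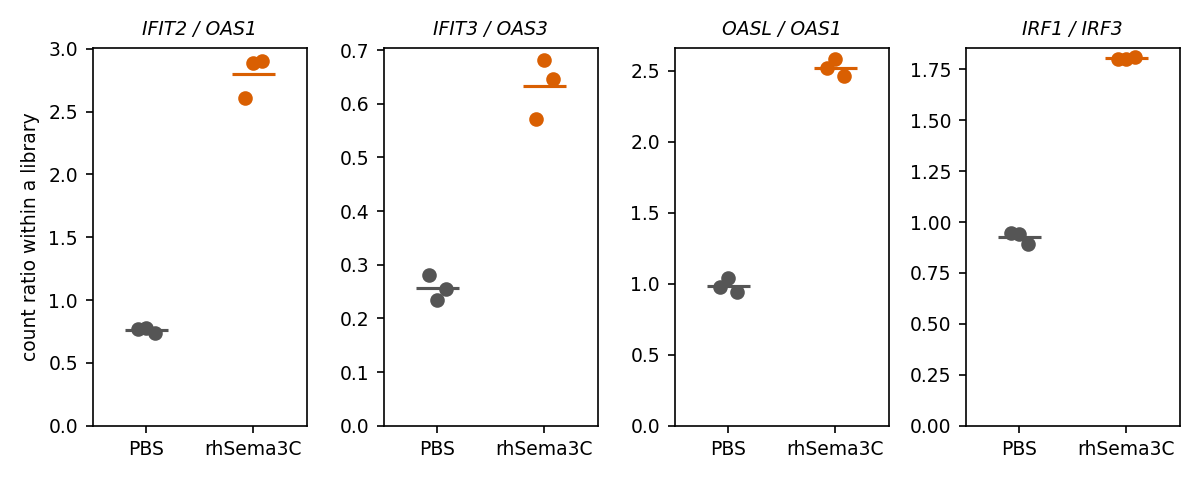
Ratio of the counts of 2 members in the same library (y axis, from 0) in PBS samples (grey) and rhSema3C samples (orange) for 4 pairs, with lines at the group means. IFIT2 to OAS1 lies between 0.738 and 0.779 with PBS and between 2.61 and 2.9 with rhSema3C.

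Compared per length, the members spanned a wide range of levels. *IFITM3* had the highest mean FPKM with PBS, at 195.7 ± 3.79, followed by *BST2* at 139.6 ± 3.26, *IFI6* at 91.7 ± 1.29, *IRAK1* at 77.5 ± 3.05 and *ISG15* at 55.5 ± 1.75 (SD, n = 3). With rhSema3C the order began with *IFITM3* at 175.4 ± 0.204, *BST2* at 95.4 ± 1.14 and *IRAK1* at 75.4 ± 1.98, and *IFI6* came after *IRAK1* at 54.8 ± 2.31. *IFIT3* went from 15.3 ± 0.971 to 24.4 ± 1.47 and *OAS3* from 18.5 ± 0.53 to 12 ± 0.452. The genes that rose were mostly in the middle of the range: *IFIT2* was at 4.6 ± 0.247 and *SP100* at 4.46 ± 0.244 with PBS. The summed FPKM of the 47 members was 919.1 to 939.3 with PBS and 799.3 to 817.2 with rhSema3C, while the sum over all genes was 288169 to 297339 and 265983 to 268533.

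**Figure D5:**
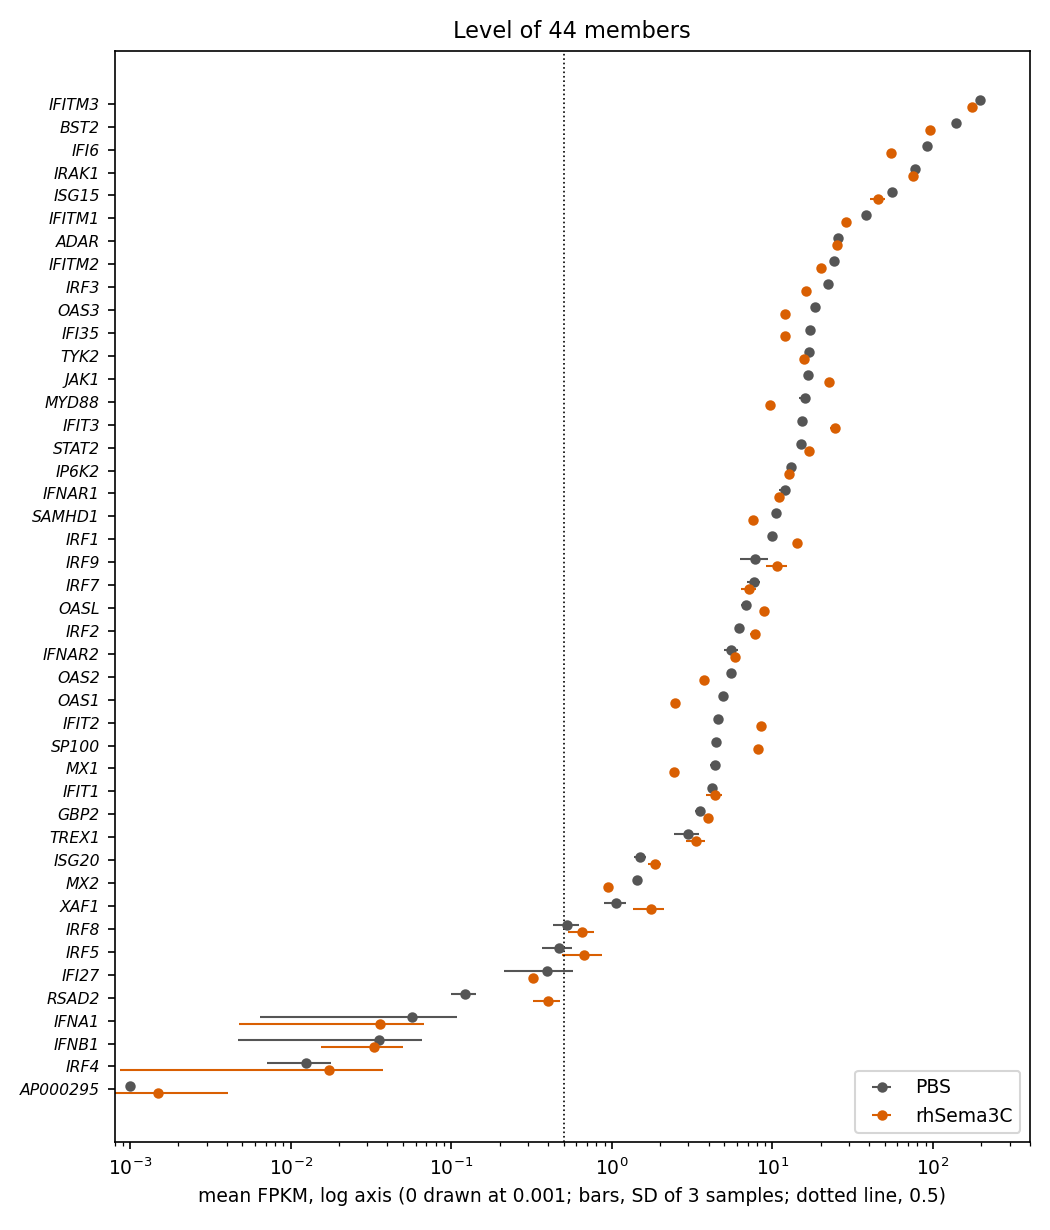
Mean FPKM of 44 of the 47 members on a log axis (x axis), ordered by their level with PBS; grey points are PBS, orange points rhSema3C, bars the SD of 3 samples, and the dotted line the limit of 0.5 for a test, with a mean of 0 drawn at the left edge. IFITM3, BST2 and IFI6 have the highest PBS means, and IFNA1, IFNB1 and IRF4 lie far below the limit.

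Genes of the response that do not carry the GO term were read from a list of interferon-stimulated genes, of which 58 were in the table and 55 were tested. Of these, 21 were higher and 19 lower, beside 31.7% and 30.6% of all genes tested. Their median log2 fold change was 0.02, the value of all genes. After the GC and length correction 14 of them were higher and 19 lower, beside 24.8% and 31.3% of all genes. With library-size scaling the numbers were 25 and 13, with limma on log2(FPKM + 1) 24 and 12, and on the TPM scale 29 and 7. Among the genes that passed the test with groups that did not overlap, the largest rises were those of *DDX60* (log2 fold change 1.19, SE 0.14), an RNA helicase, *SLFN5* (1.11, SE 0.05), *NMI* (1.07, SE 0.12), which binds STAT proteins, *APOL6* (0.79, SE 0.05) and *HERC5* (0.63, SE 0.12), the ligase that attaches ISG15 to proteins. The largest falls were those of *CNP* (-0.98, SE 0.04), *TRIM14* (-0.86, SE 0.05), an adaptor at mitochondria, *BATF2* (-0.59, SE 0.14), *PARP10* (-0.51, SE 0.06) and *LY6E* (-0.48, SE 0.04). All of these 10 but *BATF2* also passed after the correction.

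The sensors and adaptors of interferon induction included 20 tested genes, 10 higher and 6 lower, with a median of 0.13. Beside this, 31.7% of all genes tested were higher and 30.6% lower. After the GC and length correction 8 of the list were higher and 4 lower, with a median of 0.01, beside 24.8% and 31.3% of all genes. On the TPM scale 11 and 3 of the list were called. The members *IRF3* and *IRF7*, and *IFI16* and *TRIM25* of the wider list, are in this list too and are counted under both. *DDX58*, which encodes the RNA sensor RIG-I, went from 15 ± 0.342 to 25.6 ± 2.05 CPM (SD, n = 3 each), a log2 fold change of 0.78 (SE 0.08, edgeR adjusted p = 1.2e-05). *IFIH1*, which encodes MDA5, rose by 0.59 (SE 0.11) and *IFI16*, a DNA sensor, by 0.54 (SE 0.06). The adaptors *TANK* and *AZI2* of the kinase TBK1 rose by 0.71 (SE 0.10) and 0.63 (SE 0.07). After the GC and length correction the rises were smaller and still passed. They were 0.47 for *DDX58*, 0.36 for *IFIH1*, 0.21 for *IFI16*, 0.36 for *TANK* and 0.29 for *AZI2*. The kinase gene *IKBKE* fell by 0.79 on the log2 scale (SE 0.07) and *MAVS*, the mitochondrial adaptor downstream of RIG-I and MDA5, fell by 0.43 (SE 0.05). After the correction *IKBKE* was at -0.52 and *MAVS* at -0.34, and both still passed. *STING1*, *TRAF3* and *TRIM25* were also lower, at -0.25, -0.23 and -0.15, and did not pass after the correction.

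Regulators of the signal and related receptors included 21 tested genes, 6 higher and 6 lower, with a median of -0.02. Beside this, 31.7% of all genes tested were higher and 30.6% lower. After the GC and length correction 7 of the list were higher and 5 lower, with a median of 0.13, beside 24.8% and 31.3% of all genes. With library-size scaling 7 and 4 of the list were called, and on the TPM scale 11 and 4. *HERC5* and *UBE2L6* are also in the wider list and are counted under both. *USP18*, which removes ISG15 from proteins and restrains IFNAR2, went from 9.71 ± 0.923 to 5.43 ± 0.419 CPM (SD, n = 3 each), a log2 fold change of -0.84 (SE 0.12, edgeR adjusted p = 0.00013). *JAK2* and *IFNGR1*, of the interferon-γ receptor, rose by 0.83 (SE 0.12) and 0.80 (SE 0.07), and by 0.50 and 0.48 after the correction. *IFNGR2*, of the same receptor, was not called, at -0.05 (SE 0.07, edgeR adjusted p = 0.56). *PTPN2* and *PIAS1*, which restrain STAT signalling, rose by 0.65 (SE 0.07) and 0.47 (SE 0.06). *STAT5B*, *STAT6* and *PIAS4* fell by 0.51 (SE 0.05), 0.49 (SE 0.04) and 0.38 (SE 0.07). After the correction *PIAS1* was at 0.14 and still passed (edgeR adjusted p = 0.029), and *PIAS4* was at -0.10 and did not (edgeR adjusted p = 0.24). *SOCS3*, a feedback inhibitor of JAK kinases, had a log2 fold change of -0.23 (SE 0.07, edgeR adjusted p = 0.015), with 0.05 after the correction, and its relative *SOCS1* had 0.16 (SE 0.27, edgeR adjusted p = 0.61). Of the members themselves, *IFIT2*, *IFIT3*, *IRF1*, *JAK1*, *OASL* and *SP100* were called higher, and *BST2*, *IFI35*, *IFI6*, *IFITM1*, *IFITM2*, *IRF3*, *MX1*, *MX2*, *MYD88*, *OAS1*, *OAS2*, *OAS3* and *SAMHD1* lower, in each of the 16 alternative fits that held the gene, the fit without a limit on low genes not counted.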

How the data were processed

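RNA of 6 LX-2 samples was sequenced from mRNA libraries on an Illumina instrument. For each gene the authors deposited whole-number counts, not normalised, and FPKM values, scaled to transcript length and library size. The aligner, counting tool, strand setting and build are not given in the sources used here; of 32887 genes found by ID in GENCODE 29 (GRCh38), 19762 had the same start and end. A count of 1 stood beside FPKM below 0.001 in 1463 cases, and counts were used as deposited. Every value column belonged to a sample (0 left over). The authors' methods name Cufflinks and cuffmerge, which cannot be run from these values.

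Genes were kept where FPKM averaged 0.5 or more across all 6 samples, and their counts were fitted with edgeR's quasi-likelihood test (design by group, TMM factors of 0.958 to 0.968 for PBS and 1.03 to 1.04 for rhSema3C, common biological coefficient of variation 0.117). Benjamini-Hochberg adjustment ran over all 14178 genes, and the SE was derived from the F statistic. Members below the limit were read from the fit without it. Sequence shared between genes was measured as the share of 50-base words of each member's longest GENCODE transcript that occur in transcripts of other genes. The tests were tried on counts simulated with a common dispersion for all genes and no trend with GC content. No result given here rests on that trial.

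The members and gene lists were chosen with earlier results of these data known. The genes named are all members of the IFIT, OAS, IFITM, MX and IRF families and of the receptor group, apart from 3 members not reported here by name, up to 8 of the largest rises and 8 of the largest falls among the other members and up to 5 of each in the other lists, the 3 members highest with PBS, and *SOCS1* and *SOCS3*; *RSAD2*, *IFI27*, *ISG20*, *GBP2*, *TREX1* and markers were added to account for every member and cell type. *IFNGR2* was added as the partner of *IFNGR1*, and *UBE2L6* as a gene that lists share. Alternatives covered scaling, filters, DESeq2, limma on log2(FPKM + 1), log2(FPKM + 0.1) and log2(TPM + 1), a replicate block and leaving out each sample. The GC content and length correction (splines of 4 degrees of freedom per library, longest GENCODE transcript) was added after the data were seen. The software was DESeq2 1.42.0, limma 3.58.1 and edgeR 4.0.16 under R 4.3.3.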

Additional observations from a re-analysis of the deposited data

How the results depend on the processing

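With 3 samples a group and changes mostly under 2-fold, the calls of members near 0 depend on the scaling and on single samples. The members higher and lower numbered 8 and 20 with DESeq2, 11 and 15 with limma on log2(FPKM + 1) and also on log2(FPKM + 0.1), 8 and 19 of all 47 without the filter, and 7 to 9 and 18 to 21 with each sample left out. Members lower numbered 13 on the TPM scale and 11 at mean FPKM of 5 or more, where fewer genes were tested. Their median of -0.14 became -0.11 with the GC and length correction, -0.10 with it and the replicate block, -0.03 with library size, -0.04 with log2(FPKM + 0.1) and log2(FPKM + 1), 0.09 with TPM and -0.07 at mean FPKM of 5 or more, and -0.17 to -0.12 with each sample left out. Over all genes, 6934 were higher and 2428 lower with TPM, 5641 and 3433 with library size, and 2603 and 2621 at mean FPKM of 5 or more.

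Of the wider interferon-stimulated genes, those higher numbered 12 with the GC and length correction and replicate block and 13 at mean FPKM of 5 or more. Those lower numbered 12 with either log2(FPKM) fit, 7 with TPM and 10 at mean FPKM of 5 or more. Their median of 0.02 became 0.13 with library size and log2(FPKM + 0.1), 0.09 with log2(FPKM + 1), 0.23 with TPM, -0.01 at mean FPKM of 5 or more and without the filter, and -0.03 to 0.06 with each sample left out. Sensors numbered 5 higher at mean FPKM of 5 or more and 3 lower with TPM. Regulators numbered 11 higher with TPM, and 3 higher and 3 lower at mean FPKM of 5 or more.

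Signs turned for genes close to 0. After the GC and length correction, with and without the replicate block, these were *GBP2* at -0.13, *IP6K2* 0.05, *IRAK1* 0.13, *IRF7* 0.03, *SOCS3* 0.05 and *TYK2* 0.06. *IFIT1* and *IFNAR2* turned to 0.06 and 0.07 with library size, 0.05 and 0.07 with log2(FPKM + 0.1), and 0.04 and 0.06 with log2(FPKM + 1), and *IFNAR2* to 0.06 at mean FPKM of 5 or more. With TPM, *ADAR* was at 0.11, *IFIT1* 0.16, *IFNAR1* 0.01, *IFNAR2* 0.19, *IP6K2* 0.07, *IRAK1* 0.09, *IRF7* 0.03, *SOCS3* 0.00, *TRAF3* 0.00, *TRIM25* 0.08 and *TYK2* 0.02. *GBP2* was at -0.01 without PBS replicate 1, *IFNAR2* at 0.04, *SOCS1* at -0.04 and *TREX1* at -0.05 without PBS replicate 3, *IFIT1* at 0.03 without rhSema3C replicate 1, and *SOCS1* at -0.00 and *TREX1* at -0.05 without rhSema3C replicate 3, the highest values of *SOCS1* and *TREX1* being 0.40 and 0.21, both without PBS replicate 1. Apart from the fewer genes tested or samples used, the cause was not tested.

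Samples with the same replicate number did not deviate together (correlations of -0.09 to -0.04, against 0 to 0.08 for other pairs). With a replicate block 9 members were higher and 18 lower, *ADAR* and *IRAK1* no longer being called, and the members' median was -0.14. At this depth, IFN ligands and *IRF4* could not be compared.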

Other observations

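Further genes of the wider list, given here singly, were named after their values were seen. *IFI44* went from 15.1 to 20.4 mean CPM, a log2 fold change of 0.43 (SE 0.09, edgeR adjusted p = 0.002) that was 0.08 after the GC and length correction and did not pass there. *IFI44L*, beside it on chromosome 1, was below the limit for a test, with 400, 171 and 304 counts with PBS and 138, 183 and 166 with rhSema3C, and had a log2 fold change of -1.08 (SE 0.26, edgeR adjusted p = 0.012) in the fit without the limit. *IFIT5*, of the same cluster as *IFIT2* and *IFIT3*, had 0.38 (SE 0.09, edgeR adjusted p = 0.0028), and 0.04 after the correction, where it did not pass. The chemokine genes *CXCL10* and *CXCL11* were low, at 1.25 and 1.42 mean CPM with PBS and 0.793 and 0.951 with rhSema3C, and did not pass (log2 fold changes of -0.65 and -0.57, edgeR adjusted p = 0.068 and 0.064). After the GC and length correction both passed, at -1.04 and -0.93 (edgeR adjusted p = 0.0095 and 0.0051).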
